A study of Homo sapiens with 6 samples.

Results

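The genes of cholesterol and fatty acid synthesis were followed in REH cells after silencing of the ETV6/RUNX1 fusion. A gene was a member where a catalogue probe of the array carried a RefSeq accession of 1 of 35 listed genes, and all 35 were found, by 42 of the 57176 probes on the array. REH, an established line from a human B-lineage precursor leukemia, is positive for the fusion. According to the study's text it keeps no normal copy of ETV6. The 3 knockdown arrays hold RNA from cells given a lentiviral short hairpin RNA (shRNA) directed at the ETV6 portion of the fusion. The 3 control arrays are labelled non-targeting, and by the study's methods their hairpin was also designed on ETV6 but did not target the fusion transcript. In both groups the cells were grown in medium with fetal bovine serum and GFP-positive cells were sorted after transduction. Each array held total RNA labelled with Cy3, and the methods describe biological triplicates of 1 cell line.

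Cells make cholesterol from acetyl-CoA, first through the mevalonate pathway to farnesyl pyrophosphate, and then through squalene and lanosterol to the sterol itself. When sterols in the endoplasmic reticulum are scarce, SCAP escorts the SREBP transcription factors (encoded by SREBF1 and SREBF2) to the Golgi, where they are cleaved and then switch on the genes of sterol and fatty acid synthesis. When sterols are plentiful, INSIG proteins hold SCAP back, and oxysterols activate the liver X receptors (LXR), which raise cholesterol efflux through ABCA1 and ABCG1 and, through MYLIP, the breakdown of lipoprotein receptors.

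Promoters of 30 members were found in a RefSeq table of GRCh38.p14, each from 250 bases before the annotated start to 50 after it, while FDFT1, SQLE, FASN, ACAT2 and ABCG1 had no entry. They were searched on both strands for TCACNCCAC, CCAAT and GGGCGG, 3 sets of letters counted separately and with overlaps allowed. TCACNCCAC is a form of the sterol regulatory element that SREBPs bind, and other forms were not searched. CCAAT is the core of NF-Y sites, and GGGCGG is the core of Sp1 sites. TCACNCCAC was found in 1 of the 30 (3.3%), that of SREBF2, and in 1.1% of all 27305 promoters of this length in the table, which also holds genes that encode no protein. CCAAT was found in 18 of 30 (60.0%) against 35.7% of all, and GGGCGG in 28 of 30 (93.3%) against 44.6% of all. A match is a match of letters and not a measured binding site. Shown are the promoters of HMGCS1, the member with the lowest p after knockdown, of SREBF2, the member with a TCACNCCAC match, and of ABCA1, the member called in the replicate comparison. Capitals mark TCACNCCAC and CCAAT on either strand (CCAAT reads ATTGG on the other strand).
HMGCS1, chr5:43313363-43313662, minus strand: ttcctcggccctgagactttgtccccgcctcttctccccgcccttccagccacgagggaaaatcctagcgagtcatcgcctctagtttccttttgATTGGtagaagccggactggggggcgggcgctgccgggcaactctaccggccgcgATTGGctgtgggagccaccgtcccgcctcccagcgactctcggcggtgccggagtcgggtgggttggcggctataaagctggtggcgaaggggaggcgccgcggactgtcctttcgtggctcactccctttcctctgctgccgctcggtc
SREBF2, chr22:41832855-41833154, plus strand: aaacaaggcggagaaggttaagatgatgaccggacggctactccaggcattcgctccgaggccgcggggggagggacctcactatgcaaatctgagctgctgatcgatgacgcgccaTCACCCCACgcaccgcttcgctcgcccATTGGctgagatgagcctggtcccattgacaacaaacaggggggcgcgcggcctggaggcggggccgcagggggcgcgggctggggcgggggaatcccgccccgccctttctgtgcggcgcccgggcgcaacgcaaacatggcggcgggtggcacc
ABCA1, chr9:104928106-104928405, minus strand: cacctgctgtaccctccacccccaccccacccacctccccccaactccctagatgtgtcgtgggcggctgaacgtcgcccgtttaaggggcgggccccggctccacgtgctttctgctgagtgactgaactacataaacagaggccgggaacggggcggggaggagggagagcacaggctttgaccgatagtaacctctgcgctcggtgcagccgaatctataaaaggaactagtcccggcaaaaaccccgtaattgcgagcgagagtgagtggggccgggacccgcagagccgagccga
In HMGCS1 the matches to CCAAT began 155 and 100 bases before the annotated start. In SREBF2 the match to TCACNCCAC began 133 bases before the start and that to CCAAT 106 bases before it. ABCA1 held neither, but 3 matches to GGGCGG.

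The median raw intensity ran from 66 to 75 per array, against 42.25 to 48 for the negative control spots, and the scanner's flag put 45.7% to 51.0% of probes well above background. The ETV6 probe well above background on all 6 arrays read 7.91, 8.05 and 8.37 in the controls and 7.49, 7.45 and 7.29 in the knockdown, with no overlap, a log2 fold change of -0.70 ± 0.14 (SE) and an adjusted p of 0.0516 (limma, Benjamini-Hochberg). Whether this probe lies in the part of ETV6 that the fusion keeps was not tested. The study itself assessed the knockdown by western blot of the fusion protein and RT-qPCR of its transcript. The B-cell precursor markers CD79A, CD79B, PAX5, EBF1, DNTT and CD22 were retained, while VPREB1 was well above background on at most 1 array. Of the markers of other cells, HBB and CD3E were well above background on no array, LYZ had no named probe, and CD3D, CD14, ITGAM, COL1A1 and KRT8 were on 6 arrays.

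All 42 member probes passed the filter against the negative controls, and all were well above background on 6 arrays except the second ABCA1 probe (5 arrays). Values below are normalized values on a generalised log2 scale, for 1 probe a gene, the retained one with the highest mean. Levels of different genes are not compared, since probes differ in brightness. Replicate 1 of both groups stood apart from the other arrays on other genes, described below, so the counts after knockdown are also given without both of these arrays. Within groups the median SD of the members was 0.149, against 0.136 over all retained probes.

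**Figure D1:**
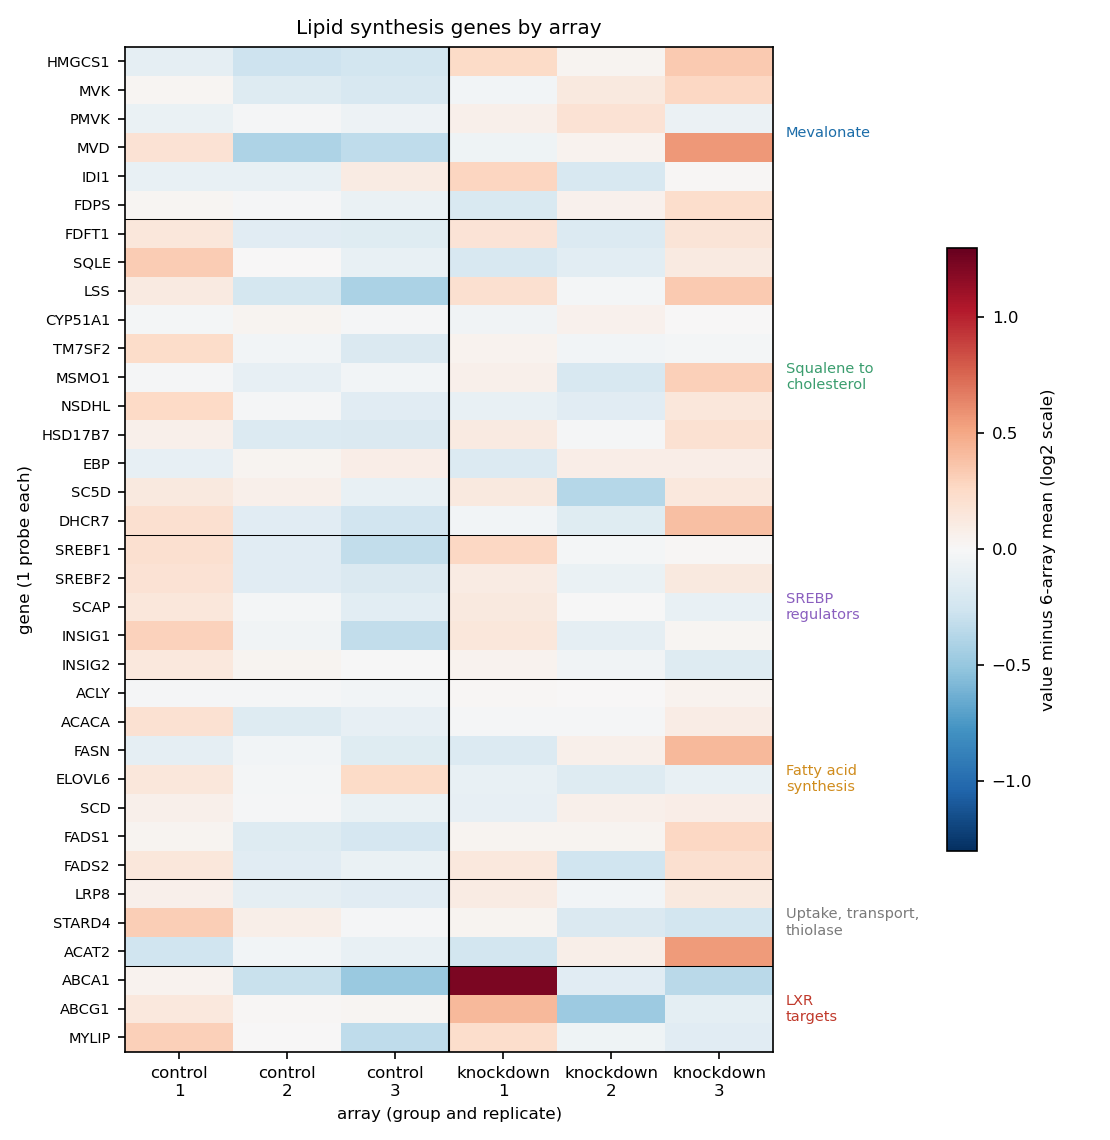
Value of each of the 35 genes on each of the 6 arrays, as the difference from that gene's mean over the 6 arrays (log2 scale, colour), with genes in rows by role and arrays in columns. Most cells are pale; ABCA1 in knockdown replicate 1 is the darkest, and knockdown replicate 3 is red for MVD and ACAT2.

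To study whether silencing of the fusion changed these genes, knockdown was compared with control. No member was called at an adjusted p under 0.05 (limma, Benjamini-Hochberg over 27428 retained probes), where 1.74% of all retained probes and 1.97% of 13625 named genes were called. At an unadjusted p under 0.05 there was 1 member of 35 (2.86%), against 13.7% of named genes. The log2 fold change was above 0 for 26 members (74.3%) and below 0 for 9, against 51.6% of named genes above 0, and its median was 0.06 against 0.01. When arrays were scaled on the spike-in probes instead, the median of all retained probes moved to 0.34, all 35 members stood above 0 with a median of 0.40, and HMGCS1 and ABCA1 were called, while calls over all 27428 probes rose from 478 to 1024. The groups did not overlap for 3 members (8.57%), HMGCS1 and ACLY higher and ELOVL6 lower, against 20.9% of named genes. The 95% interval of the fold change lay within 1 log2 unit of 0 for 34 members (97.1%, against 95.3% of named genes) and within 0.5 for 24 (68.6%, against 69.2%). ABCA1 was the exception for the wider bound, at -0.39 to 1.35. Without both arrays of replicate 1, no member was called, 29 of 35 stood above 0 and the median was 0.13. With 1 array left out at a time, the count above 0 ran from 22 to 28. It was 22 without control replicate 3, without knockdown replicate 1 and without knockdown replicate 3, and 28 without knockdown replicate 2. In RNA from a whole culture, fewer cells with a transcript and less of it per cell cannot be told apart.

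The 6 enzymes of the mevalonate pathway all had values above 0, from 0.06 to 0.42 with a median of 0.18; this held under each other scaling, while 5 of 6 were above 0 without knockdown replicate 1 or 3, or without both arrays of replicate 1. HMGCS1, the cytosolic synthase that makes HMG-CoA, read 11.48, 11.32 and 11.36 in the controls and 11.85, 11.63 and 11.93 in the knockdown. Every knockdown array was thus above every control array, by 1.33-fold on average. The log2 fold change was 0.42 ± 0.11 (SE, 95% interval 0.16 to 0.68), with an adjusted p of 0.155 (limma, Benjamini-Hochberg), and from 0.0484 to 0.611 over 18 alternative settings. The lowest of these came with spike-in scaling and was the one call. MVK, mevalonate kinase, read 12.79, 12.60 and 12.57 in the controls and 12.73, 12.90 and 13.04 in the knockdown. Its groups overlapped through replicate 1, where knockdown was the lower by 0.06, and the log2 fold change was 0.24 ± 0.12 (SE, adjusted p = 0.470 by limma). MVD, which makes isopentenyl pyrophosphate, had a difference of 0.37 ± 0.21 (SE), with knockdown replicate 3 at 10.57 and the other 5 arrays from 9.60 to 10.19. Knockdown minus control was -0.24 for MVD in replicate 1, 0.45 in replicate 2 and 0.89 in replicate 3, and without both arrays of replicate 1 its adjusted p of 0.104 (limma) was the lowest of the members. PMVK, IDI1 and FDPS, which phosphorylate mevalonate further, isomerise the isoprene unit and join such units, had 0.12, 0.06 and 0.06.

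Of the 11 enzymes from squalene to cholesterol, 6 had values above 0 and 5 below, from -0.16 to 0.35, with a median of 0.01. Without both arrays of replicate 1, 10 of 11 stood above 0, with a median of 0.09, and with spike-in scaling 11 of 11 did, but without knockdown replicate 3 it was 5 of 11, with a median of -0.02. LSS, which closes squalene epoxide into lanosterol, read 12.20, 11.84 and 11.66 in the controls and 12.28, 12.04 and 12.42 in the knockdown. The groups overlapped, since control replicate 1 lay above knockdown replicate 2, although knockdown was higher in each of the 3 replicate numbers. The log2 fold change was 0.35 ± 0.16 (SE, adjusted p = 0.431 by limma). SQLE, the epoxidase that takes the step before it, had the lowest value of the 11, -0.16 ± 0.14 (SE), and control replicate 1 at 12.86 was its highest array. FDFT1, which makes squalene, had 0.11 ± 0.14 (SE). Among the later enzymes, HSD17B7, a ketosteroid reductase, had 0.20, DHCR7, which takes the last step to cholesterol, 0.13, and MSMO1, the C4-methyl oxidase, 0.11, while CYP51A1, the lanosterol demethylase, TM7SF2, EBP, NSDHL and SC5D lay between -0.07 and 0.01. CYP51A1 was among the steadiest, between 13.07 and 13.17 on all 6 arrays.

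For the regulators the differences ran from -0.11 to 0.18, with 4 of 5 above 0 both with and without replicate 1, and 2 of 5 without control replicate 3 or without knockdown replicate 1. SREBF1 had 0.18 ± 0.16 (SE), SREBF2 0.10 ± 0.13, SCAP 0.02 ± 0.12, INSIG1 0.04 ± 0.16 and INSIG2 -0.11 ± 0.10, and each 95% interval held 0. For SREBF1 the groups ran from 14.15 to 14.68 in control and from 14.44 to 14.74 in knockdown. Its second probe ran from 8.31 to 8.42 in control and from 8.43 to 8.56 in knockdown, without overlap, at 0.16 ± 0.09 (SE). The level of an SREBF mRNA does not measure cleavage of the protein.

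Of 7 fatty acid enzymes 6 had values above 0, with a median of 0.05, and 6 of 7 did without both arrays of replicate 1 (median 0.13), but 4 of 7 without control replicate 2 or without knockdown replicate 3. ELOVL6, which lengthens palmitate to stearate, read 8.55, 8.38 and 8.65 in the controls and 8.31, 8.24 and 8.31 in the knockdown. The knockdown arrays were below all controls, yet the log2 fold change of -0.24 ± 0.10 (SE) had an adjusted p of 0.406 (limma), and it became 0.11 with spike-in scaling. ACLY, which supplies cytosolic acetyl-CoA, also did not overlap, but within a narrow span: 11.74 to 11.76 in control and 11.79 to 11.82 in knockdown, a difference of 0.05 ± 0.09 (SE). FASN, the fatty acid synthase, had 0.21 ± 0.15 (SE) with knockdown replicate 3 at 12.59 and the other arrays from 11.99 to 12.24. FADS1, a delta-5 desaturase, had 0.23 ± 0.12, and ACACA, the carboxylase that makes malonyl-CoA, SCD, the stearoyl-CoA desaturase, and FADS2, a delta-6 desaturase, had 0.04, 0.03 and 0.06. The second ACACA probe had -0.11, the opposite sign.

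STARD4, a carrier of cholesterol between membranes, read 8.66, 8.43 and 8.33 in the controls and 8.39, 8.16 and 8.12 in the knockdown. The groups overlapped, although knockdown was lower in each of the 3 replicate numbers, and the log2 fold change was -0.25 ± 0.13 (SE, adjusted p = 0.469 by limma), or 0.09 with spike-in scaling. ACAT2, the cytosolic thiolase at the head of the pathway, had 0.25 ± 0.19 (SE), with knockdown replicate 3 at 13.69 and the other 5 arrays from 12.88 to 13.21. LRP8, a lipoprotein receptor, had 0.13 ± 0.11. Among the LXR targets, ABCA1 had 0.48 ± 0.38 (SE), ABCG1 -0.12 ± 0.20 and MYLIP 0.01 ± 0.18. The second ABCA1 probe, nearer to background, had 0.38 ± 0.17 (SE), and its groups did not overlap. Without both arrays of replicate 1, 2 of 3 LXR targets stood above 0, as did 2 of the 3 genes STARD4, ACAT2 and LRP8, the same counts as with them, while without knockdown replicate 1 alone all 3 LXR targets stood below 0.

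**Figure D2:**
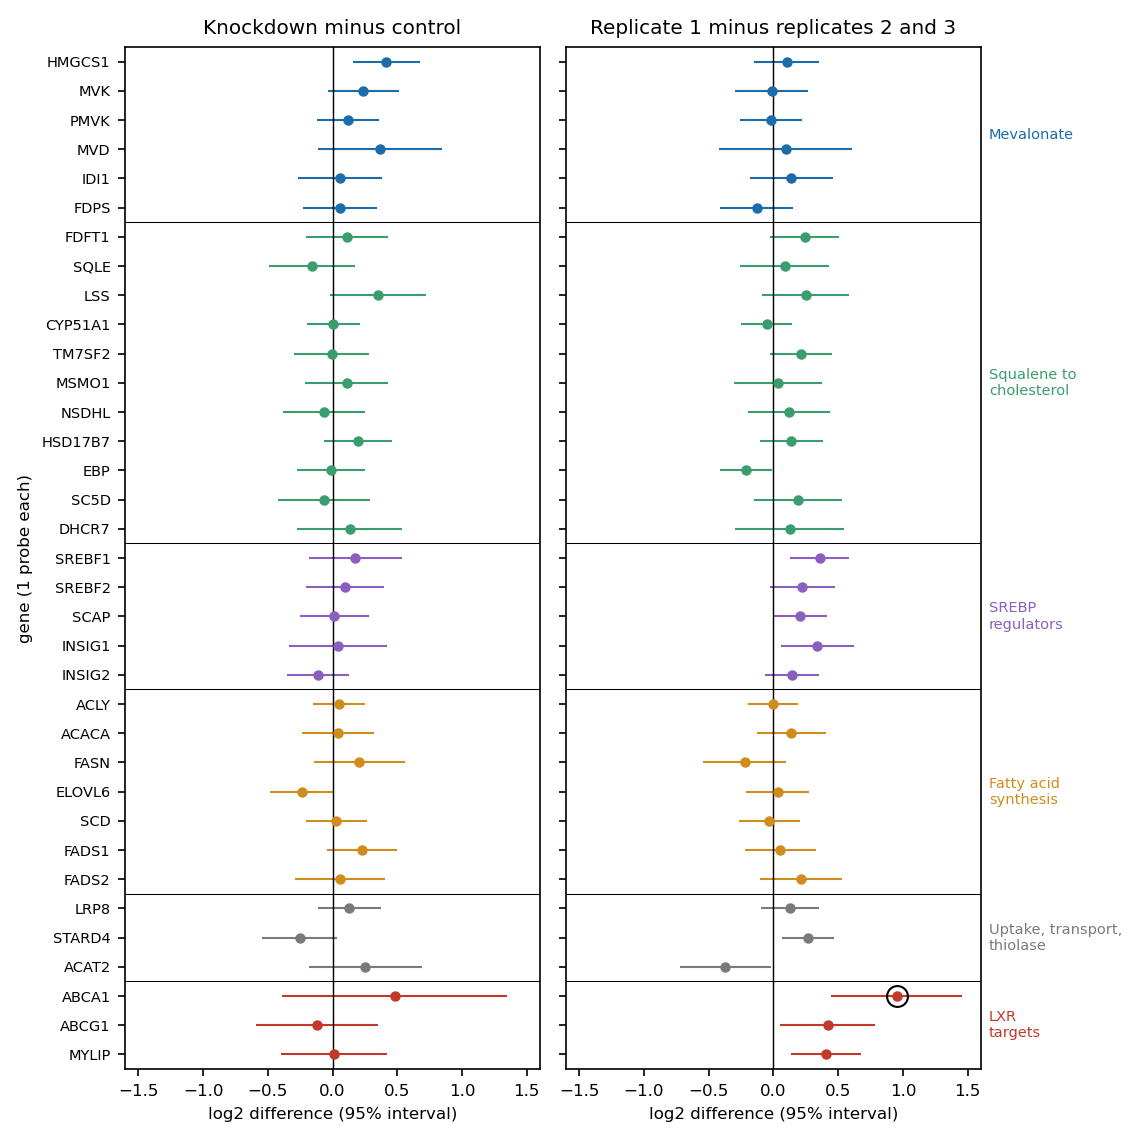
Log2 difference with its 95% interval (points and bars, limma) for each of the 35 genes, coloured by role, for knockdown minus control on the left and replicate 1 minus replicates 2 and 3 on the right. An open ring marks an adjusted p under 0.05: there is none on the left, and on the right ABCA1 alone at 0.95.

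Other genes of lipid metabolism gave the same count of calls after knockdown. None of 14 retained sterol genes (of 16 listed), 18 fatty acid genes (of 20), 6 genes of SREBP processing and 5 LXR-related genes was called (limma), and 1, 2, 0 and 1 of them had an unadjusted p under 0.05. Their median log2 fold changes were 0.04, 0.12, -0.06 and 0.03. GPAM, which starts glycerolipid synthesis, had the lowest adjusted p among them, 0.123, at 0.40.

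Next, replicate 1 of both groups was compared with replicates 2 and 3, with a term for the group. This contrast was taken up because earlier results on these arrays had shown replicate 1 to stand apart. It called 5.71% of retained probes and 6.37% of named genes. All 11 listed genes of the amino acid stress response, such as ASNS and TRIB3, were called higher in replicate 1, with a median difference of 2.10. All 8 proliferation genes had values below 0, and CDK1, BUB1 and PCNA were called. Of the 6 retained markers of other cells, ITGAM and COL1A1 were called, at 0.61 and 0.63, while CD14 had 0.15, CD3E 0.03, KRT8 -0.25 and CD3D -0.26. The B-cell precursor markers CD79A, CD79B, PAX5, DNTT, CD22 and EBF1 had 0.40, 0.34, 0.34, 0.32, 0.24 and 0.14, and none was called. The part of any of these in the values below was not tested.

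Among the members, 1 of 35 was called (2.86%), ABCA1. At an unadjusted p under 0.05 there were 8 (22.9%, against 25.6% of named genes). The difference was above 0 for 26 members (74.3%, against 53.7%), with a median of 0.13 against 0.02 over named genes. Without control replicate 1 the median was 0.03, with 21 of 35 above 0, and without knockdown replicate 1 it was 0.22, with 29 of 35. With spike-in scaling 13 of 35 were above 0, with a median of -0.02, where the median of all retained probes moved to -0.14. Replicate 1 lay above both other replicates of its group in both groups for 10 members (28.6%, against 26.8%) and below both for 3 (8.57%, against 20.8%). The 95% interval lay within 1 log2 unit of 0 for 34 of 35 (97.1%, against 97.4%).

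Over both groups together, the LXR targets held the widest differences. Among controls alone, MVD at 0.55 and INSIG1 at 0.48 stood above every LXR target. ABCA1, the cholesterol efflux pump, read 7.30, 6.96 and 6.77 in control replicates 1, 2 and 3 and 8.47, 7.10 and 6.90 in knockdown. Replicate 1 was the highest of each group, and knockdown replicate 1 stood 1.18 above the next array. The difference was 0.95 ± 0.22 (SE, 1.93-fold), with an adjusted p of 0.0488 (limma, Benjamini-Hochberg). It was 0.43 among controls and 1.47 among knockdown arrays. Without knockdown replicate 1 it was 0.43 with an adjusted p of 0.258, and over 17 alternatives, of which the slide row as a term and the omission of control replicate 3 are the same fit, the adjusted p ran from 0.00608 to 0.258, with the call kept in 6. The second ABCA1 probe had 0.30 ± 0.14 (SE, adjusted p = 0.242 by limma). MYLIP, the ubiquitin ligase of lipoprotein receptors, read 11.11, 10.80 and 10.46 in control and 11.03, 10.74 and 10.64 in knockdown, a difference of 0.41 ± 0.12 (SE, adjusted p = 0.0871, range 0.0377 to 0.818 over the alternatives, limma). ABCG1, a second sterol exporter, had 0.42 ± 0.16 (SE, adjusted p = 0.158 by limma), with 0.12 in control and 0.72 in knockdown. Of the other LXR-related genes, the receptors NR1H2 and NR1H3, their partners RXRA and RXRB and the target LPCAT3, none was called and 4 of 5 had values below 0.

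**Figure D3:**
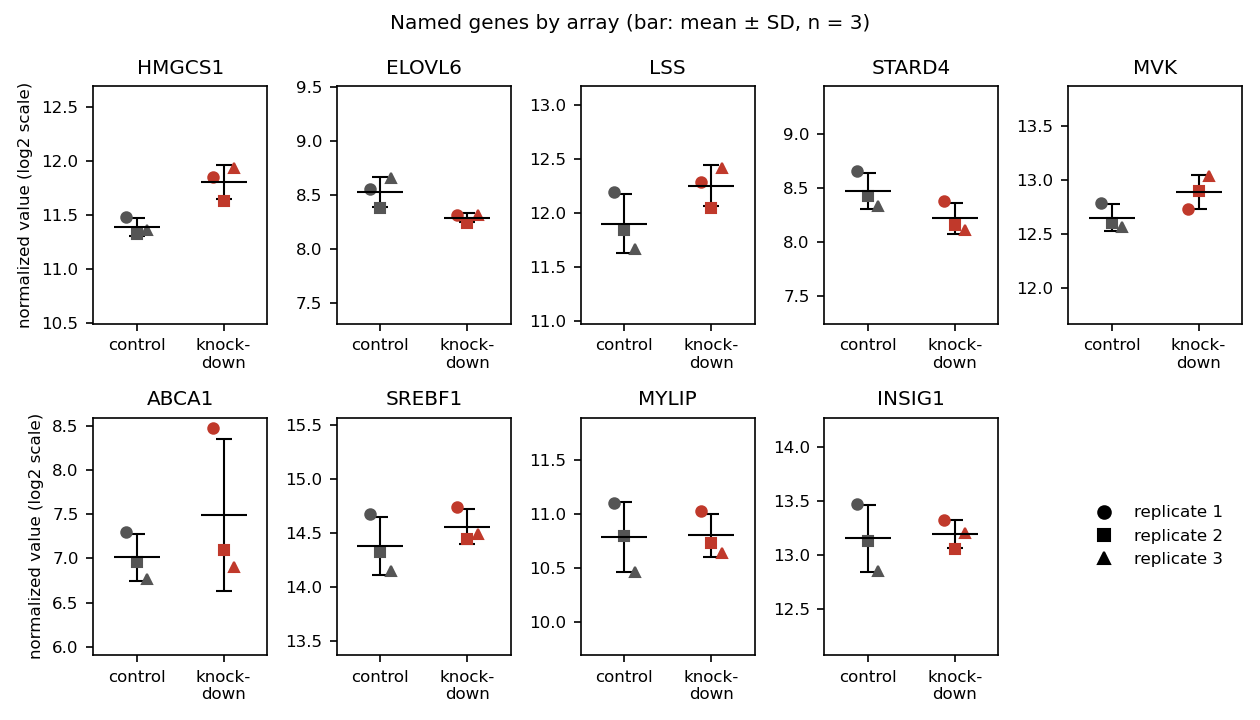
Normalized value (log2 scale) of the 9 named genes on each array, control in grey and knockdown in red, with replicate numbers as symbols and the mean ± SD of 3 arrays as bars; each panel has its own vertical range. Knockdown lies above control on every array for HMGCS1 and below it for ELOVL6, and replicate 1 is the highest of its group for ABCA1, SREBF1, MYLIP, INSIG1 and STARD4.

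All 5 regulators had values above 0 in replicate 1, in both groups, with a median of 0.22, and 4 of 5 did with spike-in scaling. SREBF1 read 14.68, 14.33 and 14.15 in control and 14.74, 14.44 and 14.49 in knockdown. Both arrays of replicate 1 were above the other 4, and the difference was 0.36 ± 0.10 (SE, adjusted p = 0.0773, range 0.0215 to 0.853 over the alternatives, limma). Its second probe had -0.01 ± 0.09 (SE), so the 2 probes of SREBF1 did not give the same value. INSIG1 read 13.47, 13.12 and 12.85 in control and 13.32, 13.05 and 13.20 in knockdown, a difference of 0.34 ± 0.12 (SE, adjusted p = 0.142 by limma). SREBF2 had 0.22, SCAP 0.21 and INSIG2 0.14. Of the 6 genes of SREBP processing, RNF139, a sterol-responsive ubiquitin ligase, was called at 0.40 ± 0.09 (SE, adjusted p = 0.0465 by limma).

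The 17 enzymes from HMG-CoA synthesis to cholesterol ran from -0.21 to 0.25 with a median of 0.10, 12 above 0, and none was called. With spike-in scaling 4 of the 17 were above 0, and of the 11 enzymes from squalene on, 9 were above 0, or 6 without control replicate 1. FDFT1 and LSS were at the top, with 0.24 and 0.25, and EBP, the sterol isomerase, was the lowest of the 17 with -0.21 ± 0.09 (SE). The mevalonate enzymes were split, 3 above and 3 below, and with spike-in scaling all 6 were below 0. Of the 7 fatty acid enzymes 4 had values above 0, from -0.22 for FASN to 0.22 for FADS2. The count was 1 with spike-in scaling, 2 without control replicate 1 and 6 without knockdown replicate 1. STARD4 had 0.26 ± 0.09 (SE, adjusted p = 0.119 by limma) and was highest in replicate 1 of both groups. ACAT2 had the lowest value of the 35, -0.37 ± 0.15 (SE), and was lowest in replicate 1 of both groups. Among the other fatty acid genes, ACSL5, an acyl-CoA synthetase, and LPIN1, a phosphatidate phosphatase, were called at 0.53 and 0.50, and none of the 14 other sterol genes was.

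Whether the replicate 1 difference itself differed between the groups was tested with an interaction term. Each group has 1 array of replicate 1, so the spread in this fit comes from replicates 2 and 3 and from what limma shares between probes. No member was called (0.22% of named genes were), the lowest adjusted p being 0.213 for ABCA1 (limma), and 5 members had an unadjusted p under 0.05 (14.3%, against 7.49%). These were ABCA1 and ABCG1, with the wider difference in knockdown, and MVK, MVD and SQLE, with the higher value in control. MVD stood 0.55 higher in control replicate 1 than in its other controls, and 0.36 lower in knockdown replicate 1 than in the other knockdown arrays. The replicate 1 difference was above 0 for 29 members in control (82.9%, against 51% of named genes) and for 21 in knockdown (60%, against 55.3%).

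**Figure D4:**
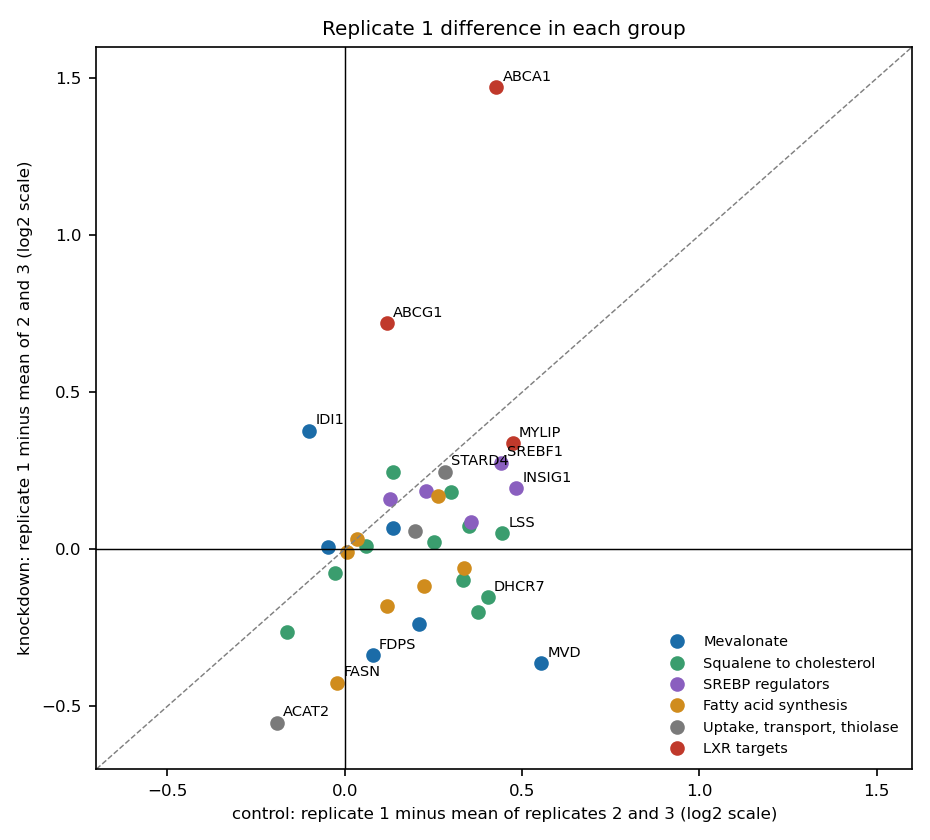
Replicate 1 minus the mean of replicates 2 and 3 for each of the 35 genes, in control (horizontal axis) and in knockdown (vertical axis), both on the log2 scale and coloured by role, with a dashed line of equal values. ABCA1 lies farthest from the line, at 0.43 and 1.47, and the SREBP regulators lie where both values are above 0.

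By array, the mean deviation of the 17 cholesterol enzymes from their 6-array means was 0.07, -0.10 and -0.14 in the controls and 0.03, -0.05 and 0.19 in the knockdown. Knockdown replicate 3 was thus the highest array for these enzymes and control replicate 3 the lowest. For the 3 LXR targets it was 0.16, -0.09 and -0.26 in the controls and 0.63, -0.23 and -0.21 in the knockdown, with replicate 1 on top in both groups. For the amino acid stress genes it was 1.29, -0.91 and -0.89, and 1.53, -0.61 and -0.42. Both replicate 1 arrays were the highest on that list by more than 1 log2 unit, whereas for the cholesterol enzymes they lay below knockdown replicate 3.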

How the data were processed

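Per the labels, total RNA of 3 control and 3 knockdown REH cultures was labelled with Cy3 and hybridised to 1-color Agilent arrays. The authors extracted spot intensities with Feature Extraction 10.7.1.1, per the file headers, and these deposited intensities were not normalized between arrays. Normalized log2 values of these arrays, deposited by the authors as 1 table, were used here as an alternative (Pearson's r with the values here 0.99903 to 0.99969 per array, across probes).

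The vsn model was written anew and fitted to the raw median intensity (7 rounds, 0.9 of the residuals kept), which gives a generalised log2 scale that understates changes of dim probes. Spots of a probe were averaged and outlier spots left out. A probe was retained over 1.1 times the 0.95 quantile of 308 negative control spots on 2 of 3 arrays of a group. Probes were named by RefSeq accession (25728 of 34134 catalogue probes). Differences were tested with limma 3.58.1 (R 4.3.3, two-sided), with Benjamini-Hochberg adjustment over all retained probes, and the procedure was tested on simulated data. An exact permutation test of 3 against 3 arrays cannot give p under 0.1. The number of arrays limits the precision.

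Members, lists and contrasts were chosen with earlier results of these data known. Named were the 5 members of lowest p in each contrast. The replicate numbers come from the labels. Deviations of same-numbered arrays from their group means correlated at 0.427, 0.288 and 0.204. Arrays of different number were not compared in this way, and replicate 1 stood apart in both groups. Whether the numbers pair the samples was therefore not tested. Reported values come from the fit without a block for replicate number, which the study's methods do not mention, and the block is an alternative. All arrays lay on 1 slide in 1 scan, control replicates 1 and 2 in row 1 and the other 4 arrays in row 2. With the row as a term, knockdown is therefore compared with control replicate 3 alone, and row and group can hardly be told apart.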

Additional observations from a re-analysis of the deposited data

How the results depend on the processing

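For knockdown against control, no member was called in 17 of 18 alternatives and 2 were with spike-in scaling, where the median of the members was 0.402, ELOVL6 turned to 0.106 and STARD4 to 0.0903. Leaving out 1 array at a time gave 0 members called, a median from 0.0307 to 0.145 and HMGCS1 from 0.351 to 0.504. With the replicate block, which pairs arrays by number, no member was called, HMGCS1 had an adjusted p of 0.0758 (limma), and calls over all probes went from 478 to 1044. With both arrays of replicate 1 left out, an alternative chosen after seeing the data, as was a tighter tolerance of the normalization, 732 probes were called HMGCS1 had 0.44 (adjusted p = 0.135, limma) and the lowest adjusted p was that of MVD, 0.104. For replicate 1, the count of 1 called member became 2 with normexp and quantile normalization and 3 with an intensity trend and robust prior, where calls over all probes also rose, from 1566 to 2333 and 2630. It became 0 with the 75th percentile, with no filter, with the scanner flag as filter, with the slide row as a term (the same fit as without control replicate 3), with the mean over probes and with no term for group. Leaving out 1 array at a time gave 0 to 1, with ABCA1 from 0.428 to 1.47, and its call was lost without control replicate 2 or 3 and without each knockdown array. No paired analysis of that contrast was possible because the replicate number defines it. The alternative on mean spot intensity was not run, since the files used here hold the median. The cause of these shifts was not tested. Values near background, as for the second ABCA1 probe, limit what can be seen.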
